A study of Mus musculus with 15 samples.

Results

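Ccn1 and Ccn2, known earlier as Cyr61 and Ctgf, encode secreted matricellular proteins of the CCN family. All probe sets annotated to either gene were taken, which gave 2 of the 8221 genes named on the array, each read by 1 probe set (92777_at for Ccn1 and 93294_at for Ccn2). Matricellular proteins sit in the extracellular matrix without building its scaffold, and they act on cells mainly through integrins and heparan sulfate proteoglycans. In cultured cells both genes are known as immediate-early genes: serum switches them on within about an hour without new protein synthesis. Their known inputs include serum response factor (SRF) with its actin-sensing MRTF cofactors, YAP with TEAD, and, for Ccn2, TGF-beta signalling.

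The study gave fetal bovine serum (FBS) to mouse embryonic stem (ES) cells of different Srf genotype for 0, 10, 30, 60 or 180 min and measured total RNA on Affymetrix MGU74A arrays. The 3 lines were E14wt, called wild-type here, E100-/-, called Srf-null, and E100-/- rescue, called rescue. All 15 combinations of line and time were read on 1 array each. How Srf was restored in the rescue line and whether the lines are single clones is not in the labels, and as far as they say each line is 1 culture series, so the p-values below measure the spread over time points. The comparison asks whether the serum response of these genes depends on Srf.

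Srf itself has no named probe set here, so the labels could not be checked on the targeted gene. The ES label was checked on 13 pluripotency markers. Their summed normalized intensity was 72483 to 120454 in wild-type, 92091 to 127319 in Srf-null and 83778 to 104748 in rescue, and every one of them was above the detection floor in each line on at least 1 array. The arrays themselves differed: 2% trimmed means ran from 350 to 1439, and 24.9% to 41.6% of deposited values were 0 or negative. For 4 of the 15 arrays the closest array was of another line. The array labelled rescue 0 min was closest to Srf-null 180 min (correlation 0.939 over probe sets tested, against at most 0.915 in its own line). Wild-type 30 min and Srf-null 10 min were closest to each other (0.944, against at most 0.924 and 0.934 in their own lines), and rescue 10 min was about as close to Srf-null 30 min (0.943) as to its own line (0.943). The array labelled wild-type 0 min had an actin 3′/5′ signal ratio of 7.53 and the rescue 0 min array one of 4.22, against 0.847 to 3.83 on the other 13. Results are therefore given with all 15 arrays and with the 12 arrays from 10 min on.

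The promoter of Ccn1 is shown because some inputs of a gene can act at motifs there. It is the 250 bases before the annotated start, chr3:145649986-145650235 on the minus strand of GRCm38.p6, from RefSeq, and 1 of the 2 genes was matched in the promoter table. Capitals mark, from left to right, a TEAD motif on the reverse strand (CATTCC), a CRE half-site on the reverse strand (CGTCA) and a TATA motif (TATAAA).
Ccn1: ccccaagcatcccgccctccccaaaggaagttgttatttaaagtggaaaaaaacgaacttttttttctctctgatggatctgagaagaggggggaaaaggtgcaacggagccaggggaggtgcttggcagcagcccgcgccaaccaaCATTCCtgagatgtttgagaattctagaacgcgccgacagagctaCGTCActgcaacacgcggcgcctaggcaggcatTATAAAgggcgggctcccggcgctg
A set of 5 motifs was searched on both strands, and none of the matches overlapped. The TEAD motif GGAATG had 1 match, at -103 to -98 from the start, and 12.64% of 32851 promoters of the same length hold it. The CRE half-site TGACG had 1 match, at -58 to -54, against a share of 17.77%. The TATA motif had 1 match, at -25 to -20, against 12.37%. The AP-1 motif TGANTCA and the CArG box, the motif SRF binds, had 0 matches in this window, against shares of 6.75% and 1.47%. A match is a description of these letters and not a measured binding site. Bases outside this window were not searched, so a count of 0 covers these 250 bases only.

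Ccn1 was bright in the lines with Srf after 60 and 180 min of serum and near or below the detection floor in Srf-null. Intensities below are quantile-normalized, on a linear scale, and values under 84.98, the floor, are not told apart from background. In wild-type, the Ccn1 intensity was 63.6 at 0 min, 333 at 10 min, 121 at 30 min, 1314 at 60 min and 1861 at 180 min. In rescue it was 246, 213, 176, 1013 and 1761 at the same times. In Srf-null it was -16.7, -0.39, 42.2 and -47.8 at 0 to 60 min, all under the floor, and 196 at 180 min. The low arrays of Ccn1 were thus wild-type 0 min and the first 4 of Srf-null, and the high ones were the 60 and 180 min arrays of wild-type and rescue. At 180 min the Srf-null value stood within the range that rescue showed before 60 min.

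Ccn2 was brighter than the floor on all 15 arrays and in Srf-null it stayed low at 60 min but was high at 180 min. In wild-type, the Ccn2 intensity was 115 at 0 min, 933 at 10 min, 814 at 30 min, 5990.35 at 60 min and 9896 at 180 min. In Srf-null it was 772, 278, 276, 165 and 2925. In rescue it was 3510.15 at 0 min, then 283, 467, 2703 and 7419.8. The 60 and 180 min arrays of wild-type and rescue were again high, together with Srf-null 180 min and the array labelled rescue 0 min. The line ranges of Ccn2 overlapped widely, while at each time from 10 min on the Srf-null value was the lowest of the 3. In bulk RNA, fewer cells that express a gene and less of its RNA per cell cannot be told apart.

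**Figure D1:**
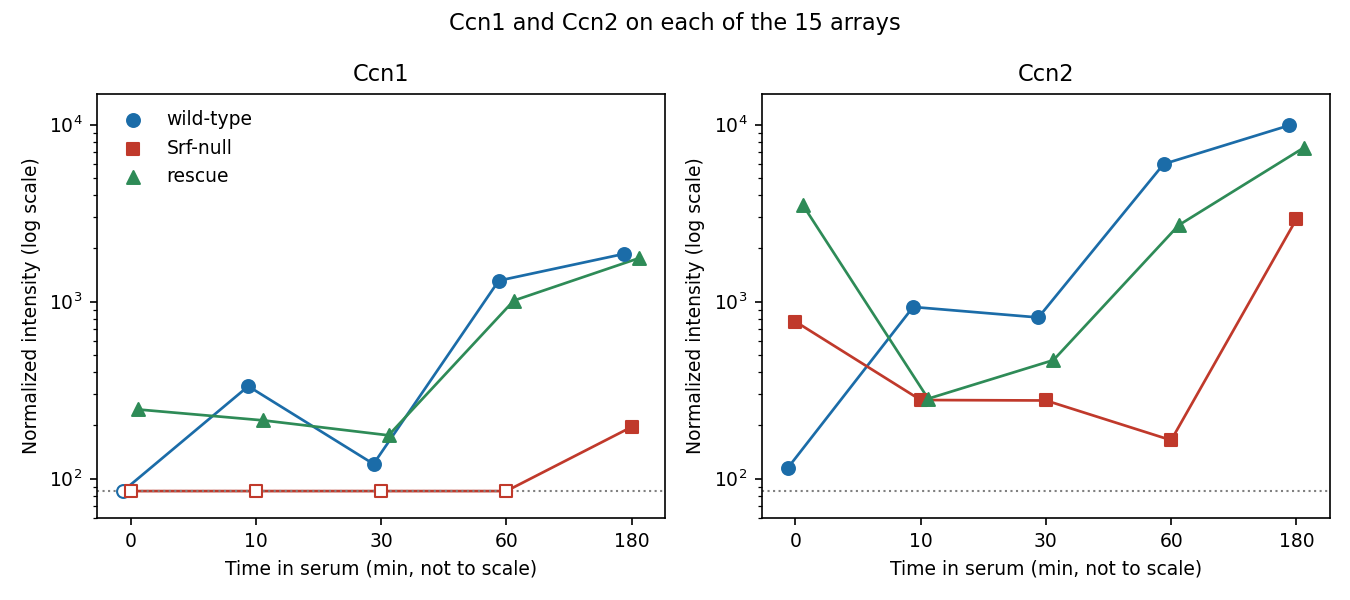
Normalized intensity (log axis) of Ccn1 and Ccn2 against time in serum (min), 1 point per array, for wild-type, Srf-null and rescue; the dotted line is the floor of 84.98, and open symbols are values set to it. Ccn1 of Srf-null lies at the floor until 60 min and at 196 at 180 min, while Ccn2 of Srf-null goes from 165 at 60 min to 2925 at 180 min.

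Before 60 min the differences between lines were small or uneven, and at 60 min they were large for both genes. At 60 min, Ccn1 in wild-type was at least 15.5-fold and in rescue at least 11.9-fold above Srf-null, which was at the floor. For Ccn2 the ratios at 60 min were 36.4-fold and 16.4-fold. The Srf-null 60 min array had 41.6% of values at or below 0, the highest share, and an actin 3′/5′ ratio of 3.83, whose part in the ratio was not tested. At 180 min Ccn1 remained 9.51-fold higher in wild-type and 9.0-fold higher in rescue than in Srf-null. The ratios of Ccn2 were then 3.38 and 2.54. At 10 min, Ccn2 of rescue was at 283 and of Srf-null at 278, a ratio of 1.02, so the order of these lines at that time rests on a difference that single arrays cannot resolve. At 0 min Srf-null was not the lowest line: its Ccn2 of 772 was above the 115 of wild-type.

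Ordered by their geometric mean from 10 to 180 min, both genes ran wild-type, rescue, Srf-null. Ccn1 averaged 560.0 in wild-type, 508 in rescue and 105 in Srf-null, with SDs of 1.82, 1.65 and 0.60 on the log2 scale (n = 4 times each). Ccn2 averaged 2589.9, 1276 and 439, with SDs of 1.84, 2.19 and 1.86. Wild-type and rescue differed by less than their spread over times, and so did rescue and Srf-null for Ccn2. That spread takes in the serum response itself, so it does not measure how precise a line difference is. Time by time from 10 min on, rescue minus wild-type was -1.72, -0.80, -1.15 and -0.42 (log2) for Ccn2. For Ccn1 it was -0.64, 0.54, -0.37 and -0.08. With the 0 min arrays rescue moved to the top of the order, at 439.6 against 384 for Ccn1 and 1562 against 1389 for Ccn2.

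The difference of Srf-null from both other lines was tested in a limma model with terms for line and for time, with Benjamini-Hochberg adjustment over the 9558 probe sets tested. Values under the floor were set to it, which for Ccn1 were 4 in Srf-null and 1 in wild-type, so its differences on the log2 scale can be understated. Neither gene passed the adjusted threshold of 0.05, which 13 of 9558 probe sets passed (0.136%). Ccn1 differed by -2.03 ± 0.49 (log2, SE; 95% interval -3.10 to -0.97; limma unadjusted p = 0.0013, adjusted p = 0.178) and ranked 68th by p. Ccn2 differed by -1.58 ± 0.77 (-3.26 to 0.09; unadjusted p = 0.062, adjusted p = 0.501). The Ccn1 interval lies below 0, and that of Ccn2 takes in 0.

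Without the 0 min arrays both differences were larger. Ccn1 then differed by -2.35 ± 0.49 (-3.48 to -1.22; limma adjusted p = 0.0637) and Ccn2 by -2.05 ± 0.54 (-3.30 to -0.80; adjusted p = 0.127). Neither passed, while 111 probe sets did (1.16%). In these 12 arrays Srf-null was below both lines at every time for both genes, which held for 255 of 9558 probe sets (2.67%). Leaving out the Srf-null 60 min array instead left a Ccn2 difference of -0.83 (adjusted p = 0.820) and a Ccn1 difference of -1.60 (adjusted p = 0.504), so the Ccn2 value depends on that array.

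Against wild-type alone, Srf-null was at -1.94 ± 0.57 for Ccn1 (limma adjusted p = 0.352) and at -1.50 ± 0.89 for Ccn2 (adjusted p = 0.612), in a comparison with 0 calls (0%) and 916 probe sets at an unadjusted p under 0.05. Over 12 arrays it was at -2.42 ± 0.57 (adjusted p = 0.158) and -2.56 ± 0.63 (adjusted p = 0.175), against 0.324% called. Rescue lay above Srf-null for both genes, and neither difference was called. Over 15 arrays, rescue minus Srf-null was 2.13 ± 0.57 for Ccn1 (limma adjusted p = 0.171) and 1.67 ± 0.89 for Ccn2 (adjusted p = 0.621), against 0.22% of probe sets called. Over 12 arrays it was 2.28 ± 0.57 (adjusted p = 0.0972) and 1.54 ± 0.63 (adjusted p = 0.330), against 2.25% called. Rescue minus wild-type was 0.20 ± 0.57 for Ccn1 and 0.17 ± 0.89 for Ccn2, with 95% intervals of -1.03 to 1.42 and -1.77 to 2.11. Without 0 min these were -0.14 and -1.02, with intervals of -1.44 to 1.16 and -2.46 to 0.42 (limma adjusted p = 0.989 and 0.680; 0.398% of probe sets called). These intervals allow differences of more than 2-fold in either direction for Ccn1, so the lines were not shown to be alike.

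**Figure D2:**
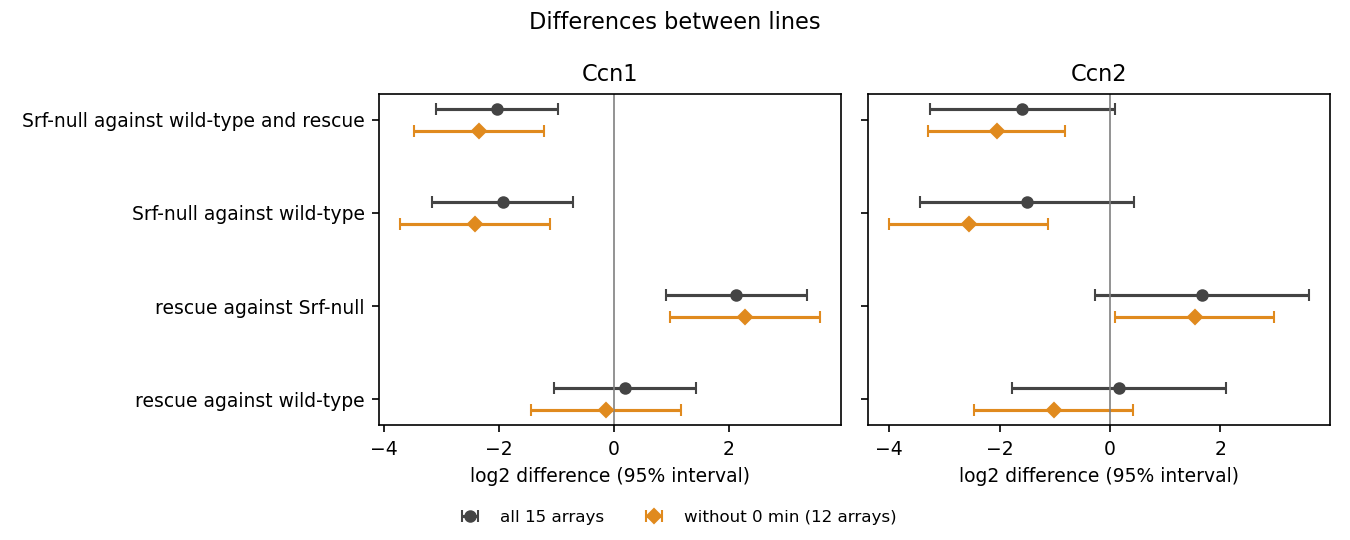
Log2 differences between lines for Ccn1 and Ccn2 with 95% intervals, from all 15 arrays (circles) and from the 12 arrays from 10 min on (diamonds). Srf-null lies below both other lines, by 2.03 for Ccn1 over 15 arrays. Rescue against wild-type has wide intervals that take in 0, with Ccn2 at -1.02 over 12 arrays.

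The arrays also fall on 2 sides of the 18S ribosomal control signal, which was above 10000 on wild-type 30 and 180 min, Srf-null 0, 10 and 60 min and rescue 0 and 180 min. On that side Ccn1 was 121 and 1861 in wild-type, 246 and 1761 in rescue and under the floor on all 3 Srf-null arrays. On the other side the Ccn1 ranges overlapped, at 42.2 and 196 in Srf-null against 63.6 to 1314 in wild-type and 176 to 1013 in rescue. Each side holds different serum times in each line, so these ranges set unlike times side by side. With the 18S side as a term, Srf-null against both lines was -2.06 (limma adjusted p = 0.233) for Ccn1 and -1.70 (adjusted p = 0.511) for Ccn2. When each array's share of values at or below 0 entered the model, the values were -1.63 (adjusted p = 0.624) and -1.08 (adjusted p = 0.790). That share was high, 37.1% to 41.6%, on Srf-null 30, 60 and 180 min and on rescue 0 and 10 min, so it cut across Srf-null and rescue; beyond these fits its part in the difference was not tested.

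Serum responses were first compared by phase, with 0 and 10 min as baseline, 30 and 60 min as early and 180 min as late. No early or late response of either gene passed the threshold. The early response of wild-type was 1.25 ± 1.20 for Ccn1 and 2.75 ± 1.5 for Ccn2 (limma adjusted p = 1 for both), in a comparison that called 0 of 9558 probe sets (0%) and had 243 at an unadjusted p under 0.05. The early response of rescue was 0.88 for Ccn1 and 0.17 for Ccn2, and that of Srf-null, where 0.0732% of probe sets were called, was -1.12 for Ccn2, while Ccn1 there had no level above the floor at any of the 4 times. Because 60 min was well above 30 min in wild-type and rescue for both genes, the early phase averaged unlike arrays. The Ccn2 baseline did so too, with 115 and 933 in wild-type and 3510 and 283 in rescue at 0 and 10 min. Over 12 arrays, where 10 min alone is the baseline, the early response was 0.26 for Ccn1 and 1.24 for Ccn2 in wild-type, 0.98 and 1.99 in rescue, and -0.38 for Ccn2 in Srf-null. Leaving out the 60 min array turned the Ccn1 response of wild-type to -0.48 and that of rescue to -0.38.

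The late response was the larger one. In wild-type it was 3.47 ± 1.47 for Ccn1 (limma adjusted p = 0.564) and 4.92 ± 1.84 for Ccn2 (adjusted p = 0.503), where 0.282% of probe sets were called. In rescue it was 2.94 and 2.90, and in Srf-null, where 0.0314% were called, 1.20 for Ccn1 and 2.66 for Ccn2. Over 12 arrays the Ccn1 values were 2.48 in wild-type, 3.05 in rescue and 1.20 in Srf-null, and those of Ccn2 were 3.41, 4.71 and 3.40. Leaving out 0 min thus turned the order of wild-type and rescue for both genes. Over 15 arrays, the test of the difference, Srf-null minus the mean of the other lines, gave -2.0 ± 1.8 for Ccn1 (adjusted p = 0.841) and -1.25 ± 2.26 for Ccn2 (adjusted p = 0.942), with 0.0105% of probe sets called. An unequal late response of the lines was not resolved for either gene.

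Steps between single times were tested in a model added after the values had been seen, in which wild-type and rescue stand for the spread. From 30 to 60 min, Ccn1 went from 121 to 1314 in wild-type, 10.9-fold, and from 176 to 1013 in rescue, 5.77-fold. Ccn2 went up 7.36-fold in wild-type and 5.79-fold in rescue, and in Srf-null its 60 min value was 0.596 of that at 30 min. The 30 and 60 min arrays lay on opposite 18S sides in wild-type and in Srf-null, and on the same side in rescue; what part this has in the steps was not tested. A step of at least 4-fold in both lines was shared by 24 probe sets (0.251%), and the same without a higher value in Srf-null by 12 (0.126%), among them both genes.

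The mean step of the lines with Srf was 2.99 for Ccn1 (SE 0.62 over 15 arrays, limma adjusted p = 0.758; SE 0.41 over 12, adjusted p = 0.442) and 2.71 for Ccn2 (SE 1.63, adjusted p = 1; SE 0.35, adjusted p = 0.435). Few probe sets passed this test in either set of arrays (0.0314%). Srf-null minus these lines was -2.99 for Ccn1 and -3.45 for Ccn2 (over 12 arrays SE 0.71 and 0.60, adjusted p = 0.242 and 0.137; 1.97% called). Ccn1 in Srf-null was under the floor at both times, so its step there was 0 by construction and -2.99 is the step of the other lines with its sign turned. The 95% intervals over 12 arrays were -4.94 to -1.03 and -5.11 to -1.80. The Ccn2 interval lies below 0 over 12 arrays, and neither value passed the adjustment over all probe sets; over 15 arrays the Ccn2 interval was -10.47 to 3.57.

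From 10 to 180 min, Ccn2 was 10.6-fold higher at 180 min in wild-type, 26.2-fold in rescue and 10.5-fold in Srf-null. Ccn1 was 5.60-fold higher in wild-type, 8.26-fold in rescue and at least 2.30-fold in Srf-null. From 0 min instead, Ccn2 was 86.1-fold higher in wild-type, 2.11-fold in rescue and 3.79-fold in Srf-null, so the near-equal steps of wild-type and Srf-null hold from the 10 min baseline. Most of the Ccn2 difference in Srf-null lay after 60 min, from 165 to 2925, which is 17.8-fold. A value at least 4-fold higher in all 3 lines was found for 12 of 9558 probe sets (0.126%), Ccn2 but not Ccn1 among them. On the log2 scale the Ccn2 step was 4.06 ± 0.35 in the lines with Srf and 3.40 ± 0.49 in Srf-null over 12 arrays (limma adjusted p = 0.126 and 0.141; 0.0418% and 0.628% called). Their difference was -0.66 ± 0.60, with an interval of -2.32 to 0.99 (0.46% called). The difference of Ccn1 over 12 arrays was -1.56 ± 0.71, with an interval of -3.51 to 0.39 (limma adjusted p = 0.479). Over 15 arrays the estimates were the same and less precise. The SEs of the Ccn2 steps were then 1.63 in the lines with Srf and 2.30 in Srf-null. The intervals of the differences were -7.69 to 6.36 for Ccn2 and -4.22 to 1.10 for Ccn1. So for this step neither gene was shown to respond unequally, and a 2-fold or larger deficit of either in Srf-null stays within the intervals. From 10 to 180 min the arrays went from the low to the high 18S side in wild-type and rescue, and from high to low in Srf-null. With the 18S side as a term, the Ccn2 difference was 5.07 ± 3.16. Beyond that fit, the part of the 18S side in this step was not tested.

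**Figure D3:**
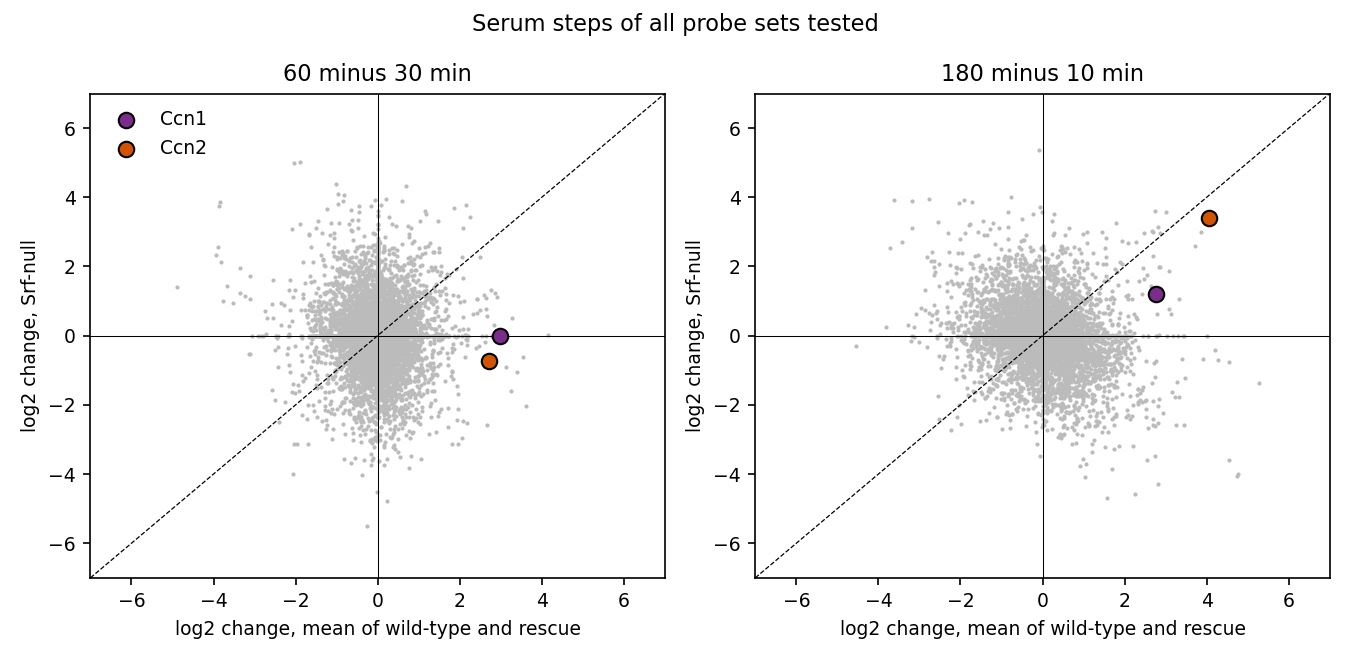
Log2 change of all 9558 probe sets (grey) in Srf-null against the mean of wild-type and rescue, from 30 to 60 min (left) and from 10 to 180 min (right), with Ccn1 and Ccn2 marked; the dashed line is equality. At 60 min both genes lie far right and at or below 0 in Srf-null, and at 180 min Ccn2 lies near the line (4.06 and 3.40) while Ccn1 lies below it (2.77 and 1.20).

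Both genes varied together, with a Pearson correlation of 0.859 between their log2 values over the 15 arrays and 0.905 over 12. The arrays share the serum times and the line series, and no p is given. Among probe sets with 1 symbol, the 5 most like Ccn1 were both probe sets of Atf3 (0.949 and 0.898), Rhob (0.867), Egr1 (0.866) and Ccn2. Those most like Ccn2 were Jun (0.889), Klf6 (0.861), Ccn1, Rhob (0.857) and Atf3 (0.840). Atf3, Egr1, Jun and Klf6 encode transcription factors of the serum response, and Rhob encodes a small GTPase that acts on actin.

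These genes differed from each other in Srf-null at 180 min. Egr1, at 17551 in wild-type and 13748 in rescue at 180 min, was at 201 in Srf-null, close to its 10 min value of 343. Jun went from 94.2 at 10 min to 758 at 180 min in Srf-null, beside 1464 in wild-type at 180 min. Jun was picked for its likeness to Ccn2, and Egr1 for its likeness to Ccn1, over these same arrays, so these values are a description only. On the array labelled rescue 0 min, Jun was at 946, Klf6 at 4231 and Ccn2 at 3510.15, all high, whereas Egr1 was below 0. Whether this array was swapped or wrongly labelled was not tested.

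**Figure D4:**
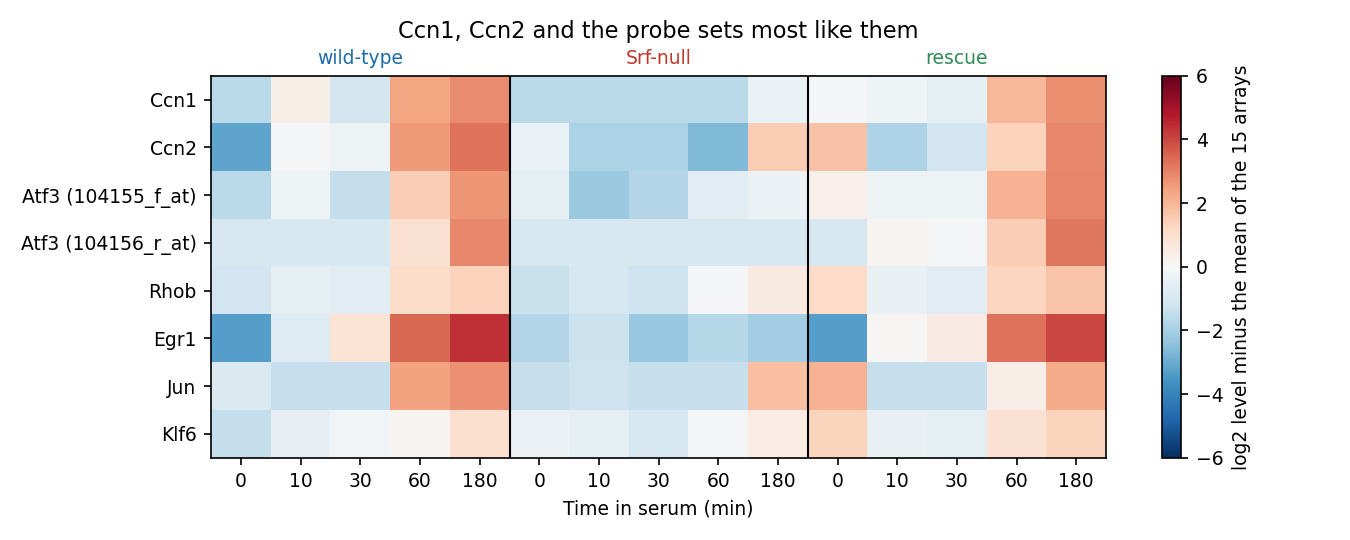
Log2 level of Ccn1, Ccn2 and the probe sets most correlated with them, each minus its mean over 15 arrays, by line and time in serum (min); red is above and blue below the mean. In Srf-null, Ccn2 and Jun are above their mean at 180 min (2925 and 758 in intensity) and Egr1 is not (201).

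Within the CCN family, Ccn3, Ccn4 and Ccn5 were also read, and Ccn6 had no named probe set. Ccn4 (Wisp1) stayed at or below 324, Ccn5 (Wisp2) at or below 231 and Ccn3 (Nov) at or below 165 on all arrays. Over 12 arrays, Srf-null against both lines was -0.71 for Ccn4, 0.34 for Ccn5 and -0.09 for Ccn3. None of the 5 family members was called by limma, with 2 (Ccn1 and Ccn2) at an unadjusted p under 0.05, against 14.5% of all probe sets; the list median was -0.71 against 0.02 for all probe sets. The step from 30 to 60 min in the lines with Srf was -0.03 for Ccn4, 0 for Ccn5 and -0.48 for Ccn3. The Ccn3 step is a fall of wild-type from 165 to the floor, since rescue was under the floor at both times. In all 3 lines Ccn5 was under the floor at 30 and 60 min, so its step was 0 by construction. The spread behind the phase-model calls of Ccn5 that follow thus rests on ties. In the phase model over 12 arrays, which has 3 residual degrees of freedom, Ccn5 was called as lower early in wild-type (-0.93; 0.492% of probe sets called) and Srf-null (-1.44; 0.481%) and late in wild-type (-0.93; 2.2%), from levels of 162 and 231 at 10 min.

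The counts that follow are for Srf-null against both lines over 12 arrays, where 1.16% of probe sets were called; over 15 arrays limma called no member of any list, with 13 of 27 immediate-early genes, for one, at an unadjusted p under 0.05, against 10.5% of all probe sets. Over 12 arrays 14.5% of all probe sets had an unadjusted p under 0.05. Of 8 other matricellular proteins tested, 1 was lower and 0 higher (median -0.11). The one called was Fbln1, fibulin-1, at -0.70 ± 0.11 (limma adjusted p = 0.0278). Smoc2, at -0.69, tenascin C (Tnc), at 0.55, and Sparc, at -0.10, were not called.

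Of 12 CCN receptors, none was called in that comparison, with 3 at an unadjusted p under 0.05 (14.5% of all probe sets) and a median of -0.15. The alpha-v integrin subunit Itgav was at -0.83 ± 0.19 (limma adjusted p = 0.0923), the beta-1 subunit Itgb1 at -0.27 and Itga6 at 0.33. Syndecan-4 (Sdc4), a heparan sulfate proteoglycan, was below the floor on all 5 Srf-null arrays and between 223 and 1077 in rescue from 10 min on. It was below the floor on wild-type 0 and 10 min and rescue 0 min as well. In wild-type it stood at 103, 333 and 439 at 30, 60 and 180 min. It was called as higher in rescue than in Srf-null (2.76 ± 0.54, adjusted p = 0.0417). Itga5 and Itgb3, the other subunits called, passed for Srf-null 180 against 10 min at 0.82 and 0.60, with levels of 150 and 129 at 180 min, just above the floor. From 10 min on both were under the floor in wild-type and rescue, so the spread behind these calls rests on ties.

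Among 14 YAP-TEAD targets tested, Ccn1 and Ccn2 included, none was called, with 6, both genes among them, at an unadjusted p under 0.05 (limma; 14.5% of all probe sets; median -0.27). F3, which encodes tissue factor, was at -1.15 and Lats2 at 0.68. Ankrd1, a target often used to read YAP activity, was at or below 138 on all arrays. It was called as higher at 60 than at 30 min in Srf-null (0.70; 2.36% of probe sets called), as was Lats2 (1.43), from levels of 62.6 to 138 and 103 to 277. These are opposite in direction to Ccn2 at the same step, -0.75. Ankrd1 was above the floor on 2 of 15 arrays and Lats2 on 4. At 30 and 60 min both were at the floor in wild-type and rescue, so the spread behind these calls rests on ties. The Srf-null 60 min array also had the highest share of non-positive values. Gadd45b was called in the late response of wild-type (3.37) and rescue (2.78; 0.931% called).

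Of 9 genes of the Hippo pathway, which holds YAP in check, 1 was lower and 0 higher (median 0.10). The list takes in Yap1, Wwtr1, Tead2 and Tead4 as well, so its median is not that of the YAP inhibitors. Amot, the scaffold angiomotin, was at -1.64 ± 0.25 against both lines (limma adjusted p = 0.0266) and was higher in rescue than in Srf-null (2.07). Yap1 itself was above the floor on 6 of 15 arrays and at -0.99 (adjusted p = 0.224), and Mob1b was at 0.85. Of SRF and its cofactors, Elk1, Elk3, Elk4, Fhl2 and Mrtfa were read, and none was called against both lines (1 at an unadjusted p under 0.05; median -0.24). Their differences were 0.03, 0.85, -0.97, -0.24 and -0.35. Mrtfa, the actin-sensing cofactor, was called as lower at 60 than at 30 min in Srf-null (-2.36, from 1269 to 248), on the array that also carried the highest share of non-positive values.

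None of 7 genes of the TGF-beta pathway and its inputs was called by limma, with 1 at an unadjusted p under 0.05 (median 0.04). The inhibitory Smad7 was at 0.64 (adjusted p = 0.0923), Tgif1 at 0.22, endothelin-1 (Edn1) at -0.93 and Tgfb2 at -0.12. Of 27 other immediate-early genes, 4 were lower and 1 higher (median -0.54). Atf3 was at -2.09 ± 0.34, Errfi1 at -1.72 ± 0.27, Rhob at -0.85 ± 0.13 and Btg2 at -0.72 ± 0.13, and Plaur, the urokinase receptor, at 1.63 ± 0.26. Errfi1 restrains EGF receptor signalling, and Btg2 restrains proliferation. The differences of Ccn1 and Ccn2, -2.35 and -2.05, were of the size of that of Atf3 but with larger SEs. Of the other genes in this list, Fosl1 was called in the late response of Srf-null (1.99, with 0.638% called) and rescue (1.53), Ptgs2 in that of wild-type (1.39) and rescue (1.31), and Gem in the difference of the 60 min step (0.82). In Srf-null, Gem was under the floor at 30 and 60 min. The 0.82 is thus the fall to the floor in the other lines, with its sign turned. Fosl1 and Ptgs2 were under the floor at 30 and 60 min in all lines, so the spread behind their late calls rests on ties. Each of these late values is 1 array. Fosl1 was above the floor on 2 of 15 arrays and Ptgs2 on 4.

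Markers of other cells were set beside these values, because fibroblasts are rich in both CCN proteins. Of 21 fibroblast feeder markers on the array, Col1a2, Pdgfra, Loxl1 and Mgp were at or below 0 on all 15 arrays, and 4 or 5 were above the floor on all arrays of a line. Their summed intensity was 3298 to 7009 in wild-type, 3049 to 4254 in Srf-null and 2816 to 4022 in rescue. It was highest on wild-type 0 min, where Ccn1 was under the floor. None of 14 tested was called against both lines (limma, 2 at an unadjusted p under 0.05), S100a4 at 1.58, Vim at -1.33 and Col6a2 at 0.97 included. Thy1 was called at 60 against 30 min in Srf-null (1.93, from 86.2 to 329). It was at the floor at both times in wild-type and rescue, so the spread behind that call rests on ties.

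Of 15 endoderm markers, 10 were above the floor on all arrays of wild-type, 9 on all of Srf-null and 11 on all of rescue. Foxa2 and Hnf4a were above the floor on no array. The summed intensity was 19681 to 29641 in wild-type, 20573 to 23465 in Srf-null and 19159 to 27241 in rescue. None of 13 tested was called against both lines by limma (2 at an unadjusted p under 0.05), with Lama1 at 0.64 and Sox7 at -0.63. Col4a1 and Col4a2, which encode basement membrane collagen, were called as higher in rescue than in Srf-null, by 1.14 and 1.17. Of 13 pluripotency markers, 2 were higher in Srf-null, Tbx3 (1.14) and Nr0b1 (0.57), and 1 was lower, Dppa3 (-2.79). Fgf4 and Klf4 were called as lower in rescue than in Srf-null, by -0.64 and -0.73. What part these differences of cell state have in the levels of Ccn1 and Ccn2 was not tested.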

How the data were processed

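Each of the 15 arrays is an Affymetrix MGU74A array of total RNA from mouse ES cells, per the labels. The deposited intensity table has linear values for 12654 probe sets (66 of them controls); how the authors summarized and scaled them is not given in the sources used here. Values were quantile-normalized, set to a floor at the 40th percentile (84.98, log2 6.41) and logged. Those above it on 2 arrays or more were tested (9558) with limma 3.58.1 in R 4.3.3 (lmFit, eBayes with trend, Benjamini-Hochberg), a call being an adjusted p under 0.05. Line models had 8 residual degrees of freedom (6 without 0 min), phase models 6 (3) and the added step models 4 (3). Time entered the line models as the block shared by arrays of a time. The number of arrays limits the precision, and 0 columns lacked a sample. Members, lists and tests were chosen with earlier results of these data known. Named were both genes, the 5 probe sets most correlated with each, all CCN family and SRF cofactor genes read, every list member called, and up to 4 per list by p, each read by its probe set of highest mean. Names came from the platform annotation, updated through RefSeq (GRCm38.p6). The fits were tested on simulated data.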

Additional observations from a re-analysis of the deposited data

Results flagged for a closer look

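Ccn1 in Srf-null at 180 min stood apart from the other 4 arrays of that line on the floored scale. Its normalized intensity was 196, while the other 4 were set to the floor, so the ratio of its gap to the range was 1 because of that tie (critical value 0.71 for 5 arrays). On the intensities before the floor the ratio was 0.631, under the critical value, and the 5 arrays are different serum times and not replicates. The 180 min array of Srf-null also had the highest Ccn2 of its line, at 2925.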

How the results depend on the processing

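The 38 results of Ccn1 and Ccn2 were recomputed under 1004 alternatives, of which 963 kept the direction, 41 turned it and 2 passed the threshold. Srf-null against both lines kept its direction under all 28 alternatives for either gene, between -2.35 and -1.13 for Ccn1 and between -2.15 and -0.83 for Ccn2. Both alternatives that passed used array weights: Ccn1 was then at -1.96 against both lines (limma adjusted p = 0.0469; range over its alternatives 0.0469 to 0.624) and at 1.93 in rescue against Srf-null (adjusted p = 0.0389). In the line models time was the block; with line alone, no replicate block, Ccn1 was at -2.03 (adjusted p = 0.343) and Ccn2 at -1.58 (adjusted p = 0.619), so dropping the pairing by time changed no call of either gene. Calls over all probe sets for Srf-null against both lines numbered 13, and from 0 (the share of values at or below 0 as a term) or 1 (no scaling) to 111 (no 0 min) and 182 (array weights). Rescue against wild-type turned for Ccn1 to -0.14 (common median), -0.042 (trimmed mean), -0.18 (floor at the 50th percentile), -0.049 (array weights) and -0.14 (either way of leaving out 0 min), and for Ccn2 to -0.038 (common median), -0.029 (floor at the 50th percentile), -0.73 (array weights) and -1.02 (either way of leaving out 0 min). The share of values at or below 0 as a term turned the early response of Srf-null minus wild-type to 3.63 and 0.45 (Ccn1, then Ccn2), minus rescue to 8.28 and 6.83, the late response minus wild-type to 0.81 and 0.46, minus rescue to 6.28 and 6.88, the early response of rescue to -3.79 and -3.97, its late response to -1.84 and -1.35, and the early response of Srf-null for Ccn2 to 2.87. Without scaling, the Ccn2 late response of Srf-null minus rescue was 0.83 and the 180 min step of Srf-null minus the lines with Srf 0.44; with the 18S side as a term that step difference was 5.07. The cause was not tested. Leaving out 1 array at a time moved rescue against wild-type from -0.21 to 0.52 for Ccn1 and from -0.96 to 0.79 for Ccn2; the Ccn1 early response from -0.48 to 2.97 in wild-type and from -0.38 to 2.15 in rescue; its Srf-null differences from -2.97 to 0.48 and from -2.15 to 0.38; the Ccn2 early response of rescue from -1.64 to 1.99; and for Srf-null minus rescue the early difference of Ccn2 from -3.11 to 0.53 and the late one from -2.05 to 1.58. The Ccn2 step difference at 180 min ranged from -1.85 to 0.52. These turns came without the 0 or 30 min array of wild-type, the 60 min array of the line, or the 0 or 10 min array of rescue or the 0 min array of Srf-null. A floor at the 20th percentile could not be run, since that percentile is not above 0. With 1 array per line and time, a Ccn1 ratio to a Srf-null value under the floor is a lower bound. The fitted differences are not strict bounds, since they also average wild-type 0 min, set to the floor, and Srf-null 180 min, above it.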

Other observations

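The 12 probe sets at least 4-fold higher at 60 than at 30 min in wild-type and rescue and not higher in Srf-null hold, beside Ccn1 and Ccn2, Junb, Nr5a1, Nmt2, Znhit2, Crb3, Hcn3, Gon4l, Fam102a and 2 without a single name. Junb, an AP-1 subunit, changed by 4.19 in wild-type, 2.08 in rescue and -0.90 in Srf-null on the log2 scale, by its brighter probe set. Hcn3, a pacemaker channel gene, changed by 4.09, 3.02 and -0.63, and Gon4l by 3.27, 3.98 and -2.02. These are single-array differences, named after their values were seen, and they were not tested.

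The 12 probe sets at least 4-fold higher at 180 than at 10 min in all 3 lines hold, beside Ccn2, Jun, both Junb probe sets, Id1, Id2, Id3, Rassf1, Slc30a1, H1f2 and 2 without a single name. The Id genes, known targets of BMP signalling in ES cells, changed in Srf-null by 3.15 (Id1), 2.98 (Id2) and 2.98 (Id3), against 2.07, 2.56 and 3.36 in wild-type. Ccn2 changed by 3.40 in Srf-null and 3.41 in wild-type on the same scale. Junb belongs to both sets of 12, with Ccn2: it was not higher in Srf-null at 60 min and was 2.59 higher there at 180 min. These genes were likewise named after their values were seen.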
